A study of Mus musculus with 6 samples.

Results

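The 9 myeloid lineage transcription factors Spi1, Cebpa, Cebpb, Maf, Irf8, Irf5, Runx1, Ets2 and Klf6 were followed by RNA sequencing in BMDMs, macrophages that are grown in a dish from precursors in the bone marrow. They were chosen by gene symbol from a table of 13254 genes, and all 9 were found once each and passed the filter on low values that left 11556 genes for testing. The samples came from wild-type (WT) mice, 3 in all, and from mice without the miR-130b/301b microRNA cluster (KO), also 3. The labels give the genotype and the replicate number alone, with no strain, age, sex, culture additive or treatment, and do not say whether the replicates of a genotype were separate animals, so the p-values rest on a spread that may be technical. Values are the deposited CPM, a unit scaled by library size and here by a further factor that the sources used do not give, and depth in reads is unknown. Values per sample are given in the order of replicates 1, 2 and 3.

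Macrophage identity rests on a small set of transcription factors that act in sequence. PU.1, encoded by Spi1, and the C/EBP proteins open and occupy myeloid enhancers, Runx1 prepares the ground for them in progenitors, and Irf8 joins PU.1 on composite sites to direct cells towards the monocyte and macrophage fate and away from the neutrophil fate. MAF proteins hold mature macrophages out of the cell cycle and sustain their identity, while Irf5, Ets2 and Klf6 are better known for tuning inflammatory gene expression in mature cells. MicroRNAs of the miR-130/301 family pair through their seed with sites in 3′ UTRs of messenger RNAs and lower their output.

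The labels and the cell type were checked first. The host transcript of the deleted microRNAs, 2610318N02Rik, was listed at 0 in every KO sample, and at 1.63, 2.43 and 2.07 CPM in WT. All 9 macrophage markers used were present. Their summed levels, mostly Lyz2, lay between 19910 and 20660 CPM in KO and between 18310 and 18900 CPM in WT. Taken singly, 5 were higher and 4 lower in KO, and 0 passed the test. Summed stromal markers, 9 of 10 with values, lay between 6.08 and 40.2 CPM in KO and between 57.3 and 64.8 CPM in WT; all 6 tested were lower, and Col3a1 and Postn passed the test. Neutrophil markers summed to between 176.5 and 224.8 CPM in KO and 198.2 and 218.1 CPM in WT, and Mpo passed the test among them, lower in KO. Osteoclast markers (6 of 8 with values) were mostly Mmp9. They summed to between 323 and 340 CPM in KO and 363.5 and 510.6 CPM in WT. Of the 6 tested, 4 were lower and 2 higher in KO. Ctsk alone passed the test among them, lower in KO (log2 fold change -0.67, limma, BH-adjusted p = 0.0211). Dendritic cell markers (5 of 9), nearly all Itgax, summed to between 141 and 159 CPM in KO and 176 and 284 CPM in WT. Stem and progenitor cell markers, mostly Sox4, summed to between 48.7 and 61.5 CPM in KO and 38.8 and 43.8 CPM in WT, also without overlap, and 0 of 4 tested passed limma's test (2 with an unadjusted p under 0.05, Sox4 higher and Kit lower). Summed markers of B cells reached at most 7.68 CPM. The Cd4 transcript, which macrophages can carry, was the 1 marker of T and NK cells with values, at up to 19.2 CPM. In bulk samples, fewer cells of a type and less RNA per cell cannot be told apart.

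Of the 9 factors, Ets2 fell in KO and the other 8 did not pass the test. Passing meant a Benjamini-Hochberg (BH) adjusted p under 0.05 over all tested genes, from limma on log2(CPM + 1). In all, 147 of 11556 genes passed it (1.27%), 91 lower in KO (0.787%) and 56 higher (0.485%). With an unadjusted p under 0.05 the count was 4 of 9, Ets2 and Cebpa lower and Maf and Irf8 higher, against 12.5% of all tested genes. The same 4 factors had KO and WT values that did not overlap, as held for 17.7% of all tested genes. The median log2 fold change was 0.0090 over the 9 factors and -0.00035 over all tested genes. The median size of the change, without its sign, was 0.08 over the 9 and 0.06 over all tested genes.

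**Figure D1:**
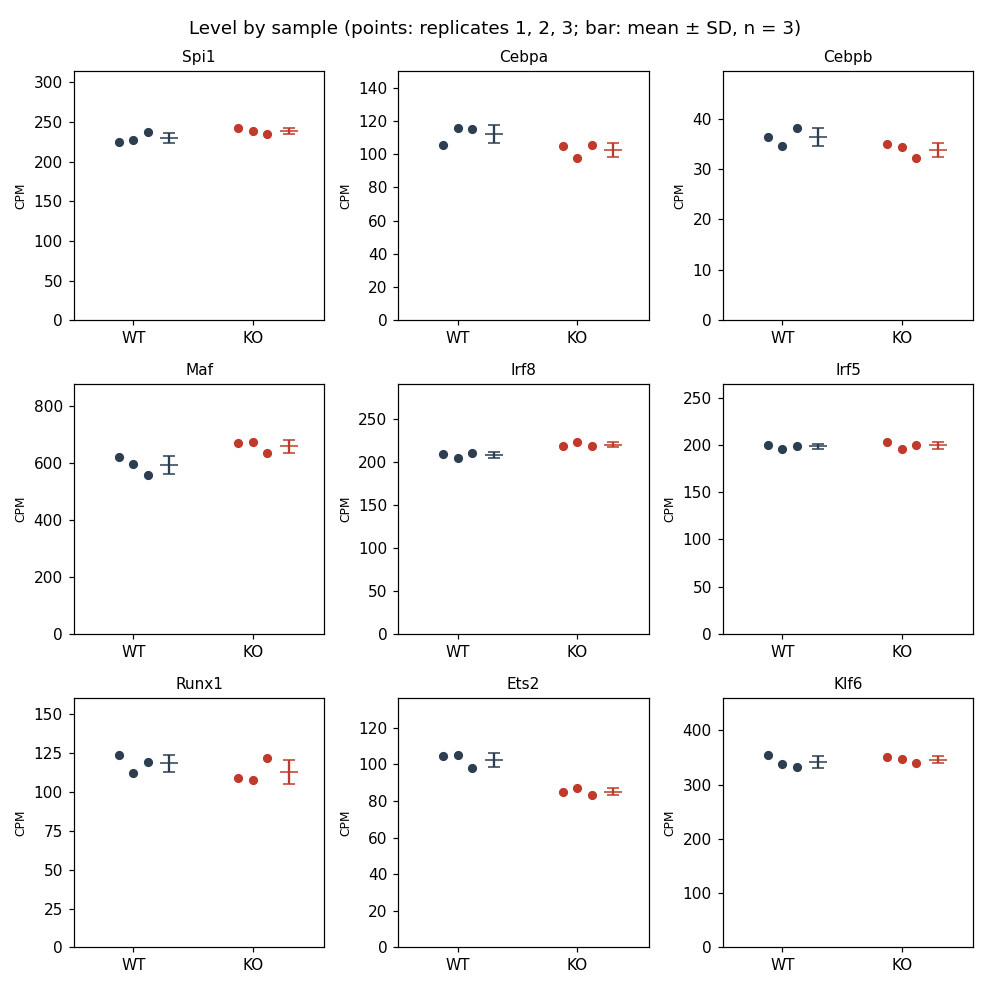
Level in CPM (y axes, from 0) of the 9 factors in each WT and KO sample; points are replicates 1, 2 and 3 from left to right and bars the mean ± SD (n = 3). The WT and KO points of Ets2 stand clearly apart (83.3 to 87.2 CPM in KO and 98.2 to 105 in WT), while those of Irf5 and Klf6 lie at the same height.

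The factors differed little between the samples of a genotype. The coefficient of variation of the 9 ranged from 1.31% (Irf8) to 6.88% (Runx1) in KO and from 1.11% (Irf5) to 5.37% (Maf) in WT, with medians of 2.34% and 3.74%; over all tested genes the medians were 5.36% and 5.08%. These factors were also more abundant than most genes, with a median level of 199 CPM against 25.9 CPM, which bears on that comparison. Set against genes within 2-fold of their own level, Irf8 had a within-genotype SD of log2(CPM + 1) of 0.0206, smaller than that of all but 6.93% of 1544 such genes, and Irf5 one of 0.0215, smaller than that of all but 8.01% of 1635. At the other end, Runx1 had an SD of 0.0840, larger than that of 80.9% of 2664 genes at a like level, and Maf one of 0.0655, larger than that of 76.8% of 444. No sample was set apart by the 9 factors together. Their mean deviation from the genotype mean lay between -0.014 (WT replicate 2) and 0.013 (WT replicate 1) on the log2 scale, and the widest deviation of a single factor was that of Runx1 in KO replicate 3, 0.11.

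PU.1 is the ETS-family master regulator of the myeloid lineage, needed for macrophages to form at all. Its gene Spi1 (ENSMUSG00000002111, chromosome 2, 91082390 to 91115756, GRCm38, GENCODE M21) stood at 242, 239 and 235 CPM in KO and at 225, 227 and 237 CPM in WT. WT replicate 3 lay inside the KO range, so the genotypes overlapped. The log2 fold change was 0.05 (95% interval -0.02 to 0.13, limma, BH-adjusted p = 0.552). On the log2(CPM + 1) scale this interval reaches from a decrease of 1.49% to an increase of 9.49%.

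The C/EBP proteins are leucine zipper factors that act beside PU.1. Cebpa, which drives progenitors into the granulocyte and monocyte lineage (chromosome 7, 35119293 to 35121928), stood at 105, 97.7 and 105 CPM in KO and at 106, 115 and 115 CPM in WT. The KO and WT samples did not overlap, although KO replicate 3 (105.3 CPM) and WT replicate 1 (105.7 CPM) were almost equal. The log2 fold change was -0.12 (95% interval -0.23 to -0.01, limma, unadjusted p = 0.0310, BH-adjusted p = 0.335). Cebpb, which is induced by inflammatory signals and supports macrophage activation (chromosome 2, 167688915 to 167690418), was the least abundant of the 9 in CPM. It stood at 34.9, 34.3 and 32.2 CPM in KO and at 36.3, 34.6 and 38.1 CPM in WT, with overlap through WT replicate 2 (log2 fold change -0.10, 95% interval -0.22 to 0.02, limma, BH-adjusted p = 0.501). Both C/EBP genes had lower means in KO without passing the test.

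The interferon regulatory factors Irf8 and Irf5 were the most even of the group. Irf8 (chromosome 8, 120736358 to 120756694) stood at 219, 224 and 219 CPM in KO and at 210, 205 and 211 CPM in WT. Every KO sample was above every WT sample, by a narrow margin (log2 fold change 0.08, 95% interval 0.0089 to 0.15, limma, unadjusted p = 0.0315, BH-adjusted p = 0.335). Irf5, which carries signals from Toll-like receptors to cytokine genes (chromosome 6, 29526625 to 29541871), stood at 203, 196 and 200 CPM in KO and at 200, 196 and 199 CPM in WT. All but KO replicate 1, the highest, lay within the WT range. Its log2 fold change was 0.0090 (95% interval -0.06 to 0.08, limma, BH-adjusted p = 0.940), which corresponds to a change between -4.22% and 5.71%.

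Runx1, the DNA-binding partner of Cbfb and a founder factor of blood formation (chromosome 16, minus strand, 92601466 to 92826149), stood at 109, 107 and 122 CPM in KO and at 124, 112 and 119 CPM in WT. KO replicate 3 lay above 2 of the 3 WT samples, and the log2 fold change was -0.07 (95% interval -0.20 to 0.06, limma, BH-adjusted p = 0.666). It had the widest interval of the 9.

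Klf6, a zinc finger factor that favours inflammatory gene expression in macrophages (chromosome 13, 5861482 to 5870394), stood at 352, 348 and 339 CPM in KO and at 354, 338 and 333 CPM in WT. The genotypes overlapped throughout (log2 fold change 0.02, 95% interval -0.06 to 0.10, limma, BH-adjusted p = 0.881).

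Ets2, an ETS-family factor downstream of the MAP kinases and of signalling by the CSF1 receptor, was the factor that fell. The gene (ENSMUSG00000022895) lies on chromosome 16, plus strand, 95702075 to 95721051. It stood at 84.7, 87.2 and 83.3 CPM in KO and at 105, 105 and 98.2 CPM in WT, a mean of 85.1 ± 1.99 CPM against 103 ± 3.84 CPM (SD, n = 3). Every KO sample lay below every WT sample, and the gap between the nearest samples, KO replicate 2 and WT replicate 3, was wider than the spread within either genotype. The log2 fold change was -0.27 (SE 0.0406, 95% interval -0.36 to -0.17, limma, BH-adjusted p = 0.0206), or -16.9% with an interval of -22.1% to -11.4%. Ets2 ranked 74 among the 147 genes past the test.

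The call of Ets2 depended on single libraries, and its size did not. With KO replicate 1 left out the BH-adjusted p from limma was 0.0901, with KO replicate 3 left out 0.0613, with WT replicate 2 left out 0.106, and with no mean-variance trend in the fit 0.0913, all above the threshold. The log2 fold change ranged from -0.30 to -0.25 over all 17 alternatives, of which 13 kept the call. The summed stromal markers were also lower in KO, at 16.6, 6.08 and 40.2 CPM against 64.8, 57.3 and 61.3 CPM in WT. The part of stromal, osteoclast, dendritic and progenitor cell transcripts in the Ets2 difference was not tested.

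Ets2 and Runx1 are on chromosome 16, as is the deleted cluster, but at 78.6 and 75.5 megabases from Mir130b (GRCm38). Among the 20 tested genes nearest to Ets2, 10 on each side, Cbr3 passed the test and was higher in KO (log2 fold change 0.54, limma, BH-adjusted p = 0.0150). Among the 20 nearest to Runx1, Cbr3 and Itsn1 passed it, Itsn1 being lower in KO (log2 fold change -0.37, BH-adjusted p = 0.0442). Of the 20 nearest to Cebpa, Cep89 passed it and was higher (log2 fold change 0.63, BH-adjusted p = 0.0173). The 118 neighbours of the other 6 factors held 0 genes past limma's test. An unadjusted p under 0.05 was reached by 7 of the 20 neighbours of Runx1, 5 of the 20 of Ets2, 3 of the 20 of Cebpa and 18 of those 118, against 12.5% of all tested genes. The neighbours of Runx1 and those of Ets2 partly overlap, with Cbr3 in both sets, so their counts share genes. Cbr3, Itsn1 and Cep89 were picked with their values known.

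The genes whose values over the 6 samples were most like those of Ets2 were Clec5a, an activating lectin receptor of myeloid cells (Pearson's r = 0.998), the ubiquitin-conjugating enzyme gene Ube2l3 (0.987) and Asap1, a regulator of the cytoskeleton (0.983). Clec5a and Asap1 also fell in KO (log2 fold changes -0.33 and -0.18, limma, BH-adjusted p = 0.0365 and 0.0442), and Ube2l3 had a log2 fold change of -0.09 (adjusted p = 0.249). Likeness was measured over both genotypes together, so genes picked by it tend to share the fall of Ets2. Their direction is therefore no separate evidence. For Spi1 the nearest were Cox7a1 (0.979), Morn2 (0.979) and Rsrc1 (0.975), none of which passed limma's test (BH-adjusted p = 0.780, 0.335 and 0.421). Likeness over 6 samples is loose: 182 genes reached an r over 0.9 with Ets2 and 122 with Spi1.

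Maf, which encodes c-Maf, an activator of Il10 and of resident macrophage genes, was the most abundant of the 9 in CPM and had the largest difference upwards. The gene lies on chromosome 8, minus strand, 115682942 to 115707794. It stood at 671, 674 and 633 CPM in KO and at 622, 596 and 558 CPM in WT. The lowest KO sample was just above the highest WT sample, so the genotypes did not overlap. The log2 fold change was 0.16 (SE 0.046, 95% interval 0.05 to 0.26, limma, unadjusted p = 0.00869), and it did not pass the adjusted test (BH-adjusted p = 0.208, with 0.083 without WT replicate 1 and 0.5001 without WT replicate 3 at the extremes of 17 alternatives).

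Maf was also the 1 gene of the 9 whose longest annotated 3′ UTR held a match to the seed of miR-130b-3p. The Maf site is therefore shown with the microRNA. The seed, bases 2 to 8 of the mature microRNA, is in capitals, and so is the complementary heptamer TTGCACT in the UTR. Mature sequences are from RefSeq (GRCm38.p6) and the UTR from GENCODE M21; miR-130b-3p is from the deleted cluster, which also encodes miR-301b, and miR-130a-3p (chromosome 2), miR-130c (chromosome 9) and miR-301a-3p (chromosome 11) are encoded elsewhere and share its seed.
mmu-miR-130b-3p: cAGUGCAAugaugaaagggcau
mmu-miR-130a-3p: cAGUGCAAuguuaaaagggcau
mmu-miR-130c: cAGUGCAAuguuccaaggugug
mmu-miR-301a-3p: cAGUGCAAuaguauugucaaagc
Maf site: tgggactgaaTTGCACTaagata

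The Maf heptamer lies at bases 1999 to 2005 of a UTR of 4316 bases. The heptamer occurred in the longest 3′ UTR of 12.3% of the 10707 tested genes with one. The UTRs of Spi1, Cebpa, Cebpb, Irf8, Irf5, Runx1, Ets2 and Klf6 held 0 copies of it; they ran from 362 bases (Spi1) to 4189 bases (Runx1), against a median of 1399 bases. Ets2, which fell, thus had none. A match is a description of these letters and not a shown site.

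**Figure D2:**
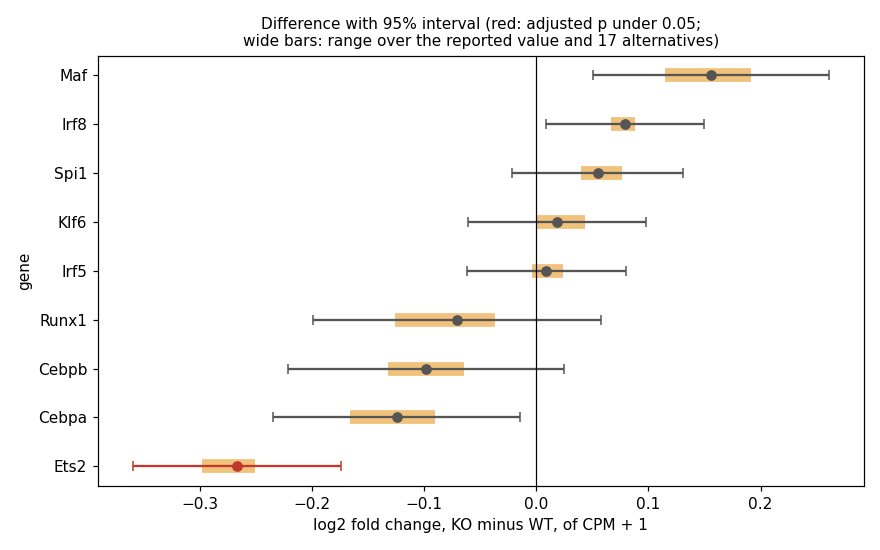
Log2 fold change of KO minus WT on CPM + 1 (x axis) for the 9 factors (y axis), with 95% intervals from limma (thin lines) and the range over the reported value and 17 alternatives (wide bars); red marks an adjusted p under 0.05. Ets2 (-0.27) lies farthest to the left, Maf (0.16) is the farthest to the right, and the range of Irf5 alone crosses 0.

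For the 8 factors that did not pass the test, the intervals state what size of difference these samples leave room for. The lowest bound was that of Cebpa, -15.0%, and the highest that of Maf, 19.8%. The intervals of Spi1, Cebpb, Irf5, Runx1 and Klf6 included 0, and those of Cebpa, Maf and Irf8 did not before adjustment for the number of genes tested.

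Ratios between factors within a sample were compared next. Spi1 over Cebpa was taken because their balance is known from myeloid fate choice. Cebpb over Cebpa and Irf8 over Irf5 were taken as paralogs of the same family. With 3 samples against 3, the smallest two-sided p of an exact permutation test is 0.1, so none of the 3 ratios could pass 0.05. The log2 ratio of Spi1 over Cebpa, a balance that in mouse progenitors steers the choice between macrophage and granulocyte fates, was 1.20, 1.28 and 1.149 in KO and 1.08, 0.97 and 1.04 in WT. The KO and WT values did not overlap, and they differed by 0.18 (exact permutation p = 0.1, BH-adjusted over the 3 ratios 0.15), more than the SD within either genotype (0.0658 and 0.0571).

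The log2 ratio of Irf8 over Irf5 was 0.11, 0.19 and 0.13 in KO and 0.07, 0.07 and 0.08 in WT (difference 0.07, exact permutation p = 0.1, BH-adjusted 0.15). The KO values lay above the WT values, but the gap between the nearest samples was smaller than the spread of the KO values. Without KO replicate 2 the difference was 0.05. The log2 ratio of Cebpb over Cebpa overlapped between the genotypes, with -1.56, -1.48 and -1.68 in KO and -1.52, -1.71 and -1.57 in WT (difference 0.03, exact permutation p = 0.7).

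**Figure D3:**
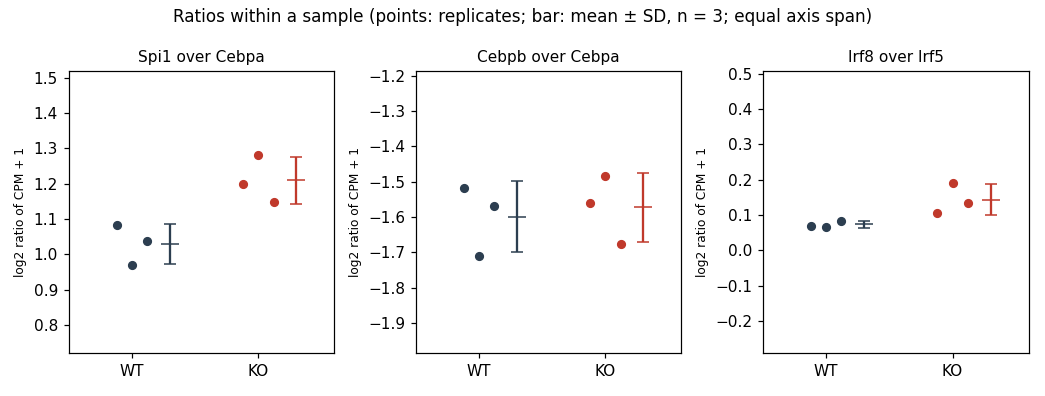
Log2 ratio of CPM + 1 between 2 factors within each sample (y axes, equal span of 0.8), by genotype; points are replicates 1, 2 and 3 and bars the mean ± SD (n = 3). Spi1 over Cebpa shows the largest difference of means (0.18), and Cebpb over Cebpa overlaps between the genotypes.

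To compare levels between genes, CPM were divided by the length of the merged exons annotated in GENCODE M21, giving CPM per kilobase. The deposited values did not behave as ones already divided by length: the median level rose from 12.7 CPM in the fifth of genes with the shortest exons to 49.3 CPM in the fifth with the longest, and among genes at 2 to 5 CPM the within-genotype SD of log2 CPM rose from 0.171 to 0.216. This length counts every annotated transcript and so understates genes with many of them, such as Runx1 with 12025 bases. Spi1 was the highest of the 9, at 88.5 CPM per kilobase in KO and 85.2 in WT. Maf (80.02 and 71.9), Klf6 (78.8 and 77.8) and Irf5 (68.7 and 68.3) followed. The ranges over samples of Klf6 and Maf overlapped, as did those of Maf and Irf5, so the order among them is not set beyond their spread. Below them came Cebpa (38.9 and 42.5), Irf8 (31.3 and 29.6), Cebpb (22.5 and 24.1), Ets2 (14.7 and 17.8) and Runx1 (9.38 and 9.85), each with a range clear of its neighbour.

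Within their families the 9 factors were mostly the leading genes. Spi1 was the highest of 11 tested ETS-family genes from the lists, ahead of Fli1 at 32.1 CPM per kilobase in KO and 29.7 in WT. Klf6 was the highest of 8 KLF genes, and Klf13, at 20.8 and 21.0, came after it. Irf5 and Irf8 were the first 2 of 8 IRF genes, ahead of Irf2 (14.0 and 15.7). Cebpa and Cebpb were the first 2 of 6 genes listed under C/EBP, where Cebpz is counted by its name and is not a leucine zipper factor. Runx1 stood well above its paralogs Runx2 (1.06 and 1.27) and Runx3 (0.223 and 0.251), and below their common partner Cbfb (41.2 and 41.1). Ets2 shared its level with Elf1, Elk3, Elf4 and Etv3, which lay between 14.6 and 19.5 CPM per kilobase in either genotype, and was far above Ets1 (1.43 and 1.72).

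**Figure D4:**
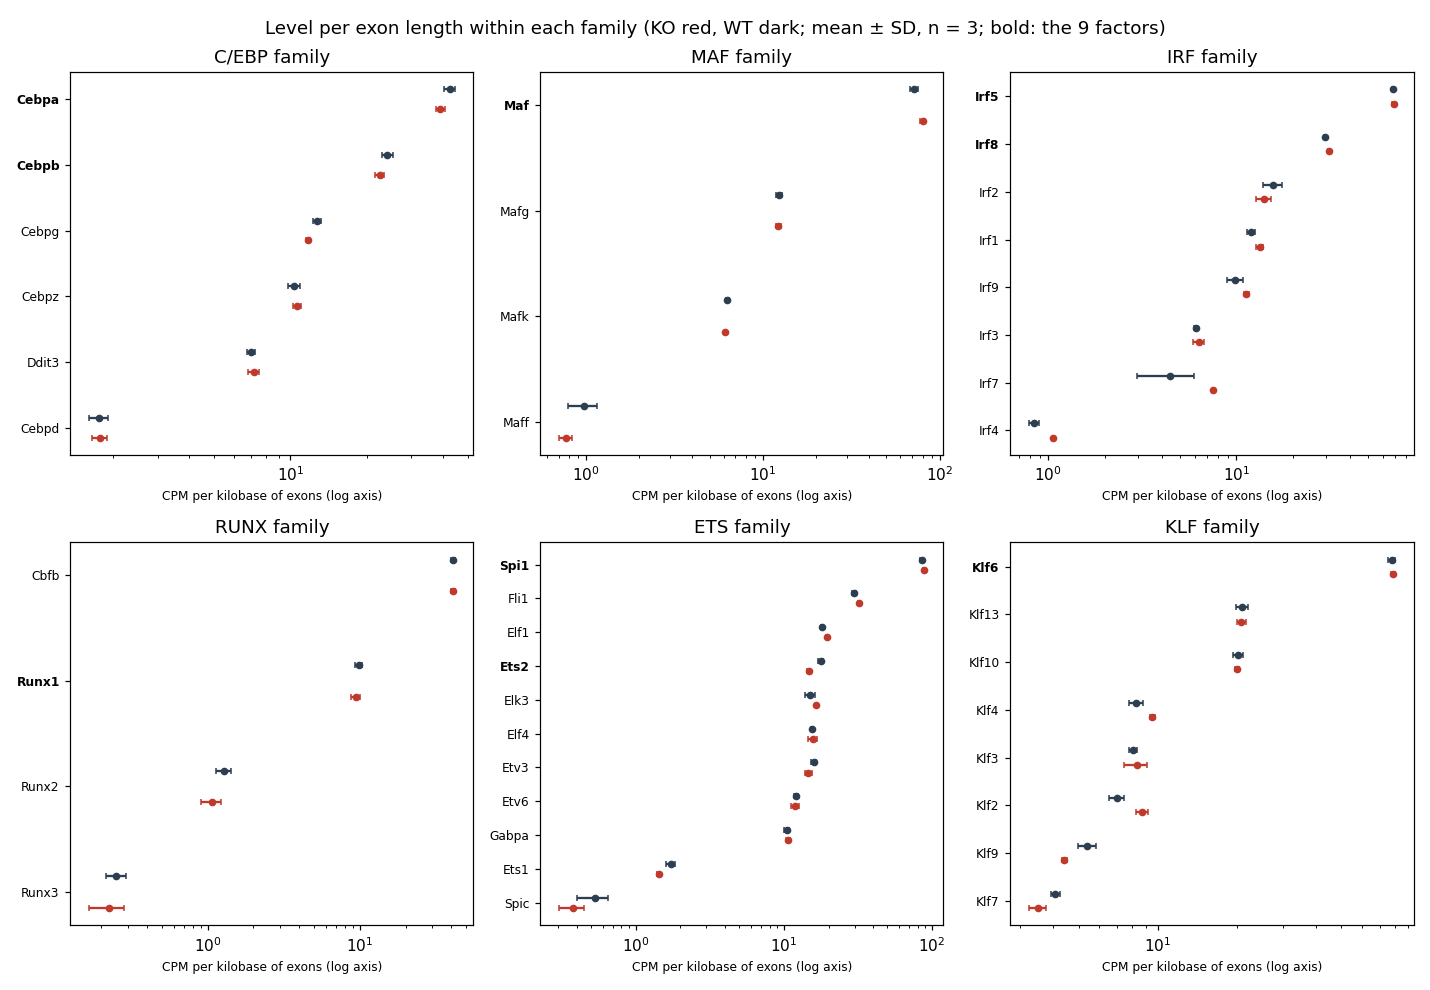
Level per exon length (x axes, CPM per kilobase, log scale) of tested genes in 6 transcription factor families, KO in red and WT dark, mean ± SD (n = 3). The 9 factors are in bold, and Cebpz is placed under C/EBP by its name. Spi1 (88.5 in KO), Klf6 (78.8), Irf5 (68.7), Cebpa (38.9) and Maf (80.02) are each the highest of their family, and Ets2 sits among genes of like level.

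Promoter windows of RefSeq (GRCm38.p6, 250 bases before to 50 after the start) were given for 7 of the 9 factors, not for Spi1 and Maf, and were searched on both strands for the letters that these same factors are known to read. GAGGAAGT (PU.1), TTGCGCAA and TTNNGCAAT (C/EBP) and TGCTGAC (MAF) matched in none of the 7, and in 3.20%, 0.183%, 2.18% and 4.67% of all 32851 windows. AANNGAAA (IRF, 23.9% of all windows), GGAANNGAA (a joint ETS-IRF site, 8.24%) and TGTGGT (RUNX, 16.8%) matched in Runx1 alone of the 7, the joint site in its downstream window and the others in its upstream window. The RUNX letters occurred 2 times in its upstream window (chr16:92826025-92826324, minus strand), at 28 and 36 bases past the start. The window is shown for those letters beside the start of Runx1, with IRF and RUNX matches in capitals.
Runx1 upstream promoter: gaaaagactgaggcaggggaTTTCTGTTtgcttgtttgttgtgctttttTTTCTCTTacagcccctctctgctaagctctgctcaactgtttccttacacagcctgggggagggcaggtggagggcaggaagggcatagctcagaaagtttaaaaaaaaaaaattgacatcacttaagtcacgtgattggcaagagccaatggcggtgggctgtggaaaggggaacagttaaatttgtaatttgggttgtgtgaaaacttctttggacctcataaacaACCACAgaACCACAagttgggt

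The window of Ets2, the factor that fell, held none of the 7 sets of letters (chr16:95702157-95702456, plus strand). This window, set by the RefSeq start, lies inside the gene as annotated in GENCODE M21, which begins at 95702075. Bases upstream of the GENCODE start of Ets2 were not searched.
Ets2 promoter: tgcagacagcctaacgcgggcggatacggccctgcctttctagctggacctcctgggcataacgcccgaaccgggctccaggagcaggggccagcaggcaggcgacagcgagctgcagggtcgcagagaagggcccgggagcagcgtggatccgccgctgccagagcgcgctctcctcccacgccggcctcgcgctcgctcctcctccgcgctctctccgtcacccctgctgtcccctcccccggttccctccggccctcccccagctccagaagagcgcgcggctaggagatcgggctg

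It was 71.7% G and C with 30 CpG pairs. Other windows of these factors ran from 63.0% (Klf6) to 80.7% (Cebpb), apart from the upstream window of Runx1 (45.0%) and the downstream window of Irf8 (54.7%), and the median of all windows was 52.7% with 7 CpG pairs. Cebpa and Irf8 held a TATA box, TATAAA, within the 50 bases before the start, at -30 and -31, as did 2.63% of all windows on the sense strand. It was searched for after the windows had been seen. The window of Cebpb held the same letters past its annotated start, outside the bases searched. The 80 bases around the box are shown for Cebpa and Irf8 (chr7:35119233-35119312 and chr8:120736298-120736377, plus strand), with the box in capitals.
Cebpa: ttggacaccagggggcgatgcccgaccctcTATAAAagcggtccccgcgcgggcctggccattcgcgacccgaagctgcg
Irf8: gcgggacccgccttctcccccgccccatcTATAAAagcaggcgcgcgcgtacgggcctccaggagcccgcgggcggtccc

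Other transcription factors of the myeloid network did not pass the test. Of 58 tested, 0 rose and 0 fell (limma, BH-adjusted p), where 1.27% of all tested genes passed, with a median log2 fold change of 0.02. An unadjusted p under 0.05 was reached by 22 of the 58 (37.9%), 14 higher and 8 lower, where 12.5% of all tested genes reached it. This list and the target lists below were chosen with earlier results of these data known, which bears on such counts. The most abundant, Zeb2, a repressor that sustains macrophage identity in mouse tissues, stood at 608, 667 and 668 CPM in KO and at 667, 657 and 643 CPM in WT, with overlap (log2 fold change -0.02, limma, BH-adjusted p = 0.899). Mef2a, a MADS-box factor, followed at 329 ± 9.89 CPM in KO against 329 ± 11.5 CPM in WT (SD, n = 3). The largest difference among them was that of Irf7, an amplifier of interferon responses chosen after its values were seen, at 28.4, 28.7 and 28.5 CPM in KO and 21.6, 10.6 and 18.2 CPM in WT, which gave a log2 fold change of 0.79 (limma, BH-adjusted p = 0.153). WT replicate 2 was the lowest of its samples. Without WT replicate 1, 3 of the 58 passed the test.

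Genes known as targets of PU.1 and C/EBP gave 2 decreases among 34 tested and 0 increases, where 1.27% of all tested genes passed. The median log2 fold change was -0.0064, and its sign was not stable, at 0.01 under quantile normalization and 0.02 without KO replicate 3. Il1rn, the antagonist of the interleukin-1 receptor, stood at 90.7, 92.7 and 89.3 CPM in KO and at 118, 151 and 154 CPM in WT, a log2 fold change of -0.62 ± 0.0914 (SE; limma, BH-adjusted p = 0.0173). The neutrophil and progenitor enzyme Mpo, a marker of cells other than macrophages, stood at 4.48, 3.99 and 3.51 CPM in KO and at 6.41, 7.55 and 6.69 CPM in WT (-0.66, SE 0.103, BH-adjusted p = 0.0219). Both had all KO samples below all WT samples, as did the stromal marker sums, whose part in them was not tested. An unadjusted p under 0.05 was reached by 8 of the 34 (2 higher, 6 lower), or 23.5% against 12.5% of all tested genes. The count past the test ranged from 0 to 3 when single libraries were left out, with 0 without KO replicate 3, WT replicate 2 or WT replicate 3 and 1 without KO replicate 1.

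Known IRF targets lay mostly higher in KO. Of 16 tested, 15 had a positive log2 fold change. The median was 0.17, against -0.00035 over all tested genes. Cd74 rose, 0 fell and 15 did not pass the test. The list was chosen with earlier results of these data known, so its direction is a description and not independent evidence. Cd74, the invariant chain of MHC class II, stood at 272, 224 and 271 CPM in KO and at 135, 146 and 171 CPM in WT, a log2 fold change of 0.76 ± 0.0991 (SE; limma, BH-adjusted p = 0.00952). Its KO and WT values did not overlap. With an unadjusted p under 0.05 there were 7 higher and 0 lower, or 43.8% against 12.5% of all tested genes. The count past the test was 0 without KO replicate 1 or WT replicate 2, and 2 without WT replicate 1. Leaving out single libraries moved the median between 0.11 (without KO replicate 2) and 0.21 (without WT replicate 1).

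Known targets of the MAF factors leaned the other way. All 13 tested had a negative log2 fold change, although those of Gas6 (-0.0006) and Cd163 (-0.0012) were very small. The median was -0.07, against -0.00035 over all tested genes. This list too was chosen with earlier results of these data known, so the shared sign is a description. Limma's test was passed by 0, while 3 had an unadjusted p under 0.05, all lower, or 23.1% against 12.5% of all tested genes. Leaving out single libraries moved the median between -0.13 (without WT replicate 1) and -0.03 (without KO replicate 2). The most abundant, Stab1, a scavenger receptor of resident macrophages, stood at 990, 820 and 1091 CPM in KO and 1055, 1141 and 1143 CPM in WT, a log2 fold change of -0.21 (limma, BH-adjusted p = 0.387). KO replicate 3 lay above WT replicate 1. C1qb, a chain of complement C1q, averaged 856 ± 37.2 CPM in KO against 870 ± 19.5 in WT (-0.02, BH-adjusted p = 0.858; SD, n = 3). Summed over the list, levels lay between 4341 (KO replicate 2) and 4872 CPM in KO and between 4906 and 5127 CPM in WT.

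**Figure D5:**
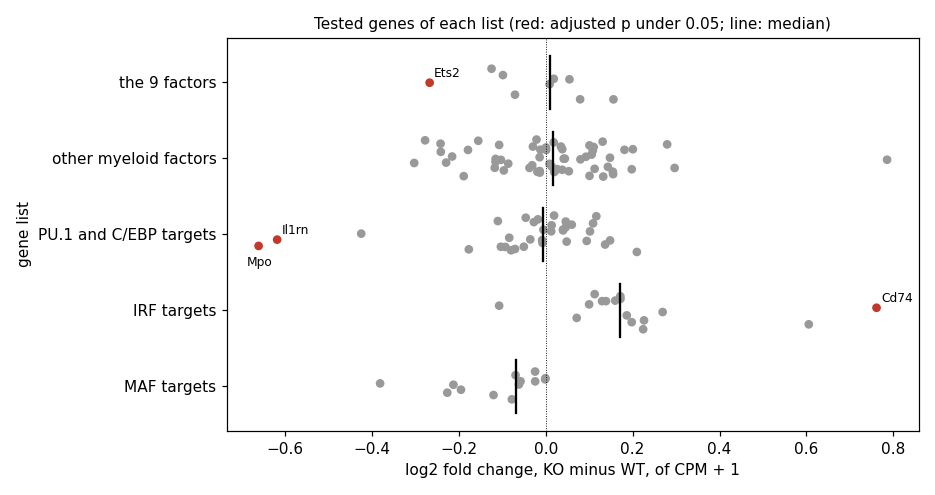
Log2 fold change of KO minus WT on CPM + 1 (x axis) for every tested gene of 5 lists (y axis, jittered); red marks an adjusted p under 0.05 and black lines are medians. Medians lie at 0.0090 for the 9 factors, 0.02 for other factors, -0.0064 for PU.1 and C/EBP targets, 0.17 for IRF targets and -0.07 for MAF targets.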

How the data were processed

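The authors deposited a single table of CPM values per gene, per the file headers, with 1 column for each of the 6 samples. GRCm39 is the build in the submitters' processing notes; aligner, counter, annotation, strand setting and scaling are not given in the sources used here. Columns summed to between 989223 and 1018258, so the deposited CPM carry a scaling beyond library size. Between 27.9% and 60.0% of values under 0.4 CPM lay within 0.1 of a whole multiple of 1 step, so whole reads were not recovered, and no counting interval is given. An unnamed column with 1 value was not used.

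Tests covered genes reaching 1 CPM in 3 samples or more, on log2(CPM + 1) with limma 3.58.1 (R 4.3.3; empirical Bayes, mean-variance trend, two-sided, BH over 11556 genes); fold changes on this scale understate low genes. The fit was tested on simulated data. Intervals are moderated 95% intervals. Ratios had exact permutation tests over 20 labelings. Tables were handled in Python 3.11.15.

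Coordinates and lengths come from GENCODE M21 (GRCm38), not the authors' build; 11279 tested genes had a position. The factors and lists were chosen with earlier results of these data known. Named were all 9 factors, list genes past the test (up to 4) or otherwise the 2 most abundant, and the 3 genes most like Spi1 and each factor past the test. An item of the lists is not reported here. Alternatives were pseudocounts of 0.1, 0.5 and 5, no filter, a mean of 5 CPM, median-of-ratios rescaling, quantile normalization, array weights, robust moderation, a fit with no trend, one with a replicate block and leaving out each sample.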

Additional observations from a re-analysis of the deposited data

How the results depend on the processing

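The number of genes past the test was 74 without the mean-variance trend and between 55 and 243 when 1 library was left out; of the 9 factors, 0 passed without the trend, and 0 to 1 without 1 library (0 without KO replicate 1, KO replicate 3 or WT replicate 2). Leaving out 1 library gave 0 to 3 other myeloid factors, 0 to 3 PU.1 and C/EBP targets, 0 to 2 IRF targets and 0 MAF targets. Among the 9 factors, Irf5 alone changed sign, to -0.0040 without KO replicate 1 and -0.00016 without WT replicate 2; its highest log2 fold change with 1 library left out was 0.022 (without KO replicate 2), and over all alternatives 0.023 (quantile normalization). The log2 ratio of Cebpb over Cebpa turned to -0.019 without KO replicate 2 and -0.030 without WT replicate 2, and reached 0.078 without KO replicate 3. The other 2 ratios kept their sign under the pseudocounts and omissions tried. The cause was not tested. Rescaling and quantile normalization changed no sign or call among the 9.

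The labels do not say whether replicate numbers pair the samples. Correlations of same-numbered deviations between the genotypes were 0.000154, 0.0834 and 0.0646. The samples of replicates 2 and 3 correlated best with their own number in the other genotype, and those of replicate 1 did not. Such weak correlations over 3 samples per genotype cannot settle whether the samples are paired. With the replicate block, 142 genes passed, Ets2 kept its call (limma, BH-adjusted p = 0.0322), and IRF and MAF targets past the test became 2 and 1.

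Unknown read depth and 3 samples per genotype limit what can be seen: of the 8 factors without a call, differences inside the printed intervals remain possible.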
